A study of Mus musculus with 6 samples.

Results

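Glutathione transferases and glutathione peroxidases are the enzymes through which cells spend glutathione. The genes described here were 10 enzymes of mouse, the transferases Gsta4, Gstm1, Gstm2, Gstm5, Gstt1 and Gsto1 and the peroxidases Gpx1, Gpx3, Gpx4 and Gpx7. They were chosen by name: every probe set whose only platform gene symbol was one of these names was taken, which gave 15 of the 45037 probe sets tested and 10 of the 17097 genes named on the array. No measured value entered this choice, although results of these arrays were known when it was made.

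The series holds 6 whole-genome Affymetrix mouse chips, 3 carrying the label KO, for loss of CD98hc, and 3 the label WT (replicates 1, 3 and 5 of each). Both kinds are labelled as fibroblasts obtained from mouse embryonic stem cells, which the arrays bear out only in part, as given below. CD98hc, the product of Slc3a2, is the heavy chain of several amino acid exchangers, among them xCT, which brings in the cystine from which glutathione is made. By the labels, both groups were grown in high-glucose medium with serum, glutamine, non-essential amino acids and 100 µM β-mercaptoethanol, a thiol that lets cells take up cysteine by another route, so the reducing agent was present under both labels. The sources used here give neither the number of clones behind each genotype nor separate cultures behind the replicates, and the spread that the p-values rest on may therefore be technical.

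The labels were first checked against the arrays. Slc3a2 had log2 values of 11.65, 11.57 and 11.54 on the KO-labelled arrays and of 10.64, 10.67 and 10.51 on the WT-labelled arrays. It was thus higher by 0.98 (standard error 0.075, limma adjusted p = 0.00018) under the KO label, against what that label says. Slc3a2 had 1 named probe set, and whether its probes lie inside the deleted exons is not known here. Cell type markers moved with the labels as well. All 22 probe sets of 15 pluripotent stem cell markers were higher on the KO-labelled arrays (median log2 fold change 5.05), with list medians of 10.18 to 10.34 on the KO-labelled and 4.82 to 4.87 on the WT-labelled arrays. Of 32 probe sets of 20 fibroblast and mesenchymal markers, 25 were lower and 1 was higher on the KO-labelled arrays, with list medians of 5.09 to 5.23 there and of 10.25 to 10.93 on the WT-labelled arrays. Col3a1, a fibrillar collagen, had 4.36, 4.13 and 4.77 on the KO-labelled and 10.52, 11.49 and 11.92 on the WT-labelled arrays at 1 of its probe sets, whereas Thy1, Pdgfra, Lum, Postn and Fap were close to background under both labels. Others of the list stayed bright under the KO label, with means of 10.61 to 11 for Vim, 9.39 and 10.34 for Sparc and 10.03 for Fn1. Vim and Sparc were lower there all the same, and Fn1 did not pass (-0.68, limma adjusted p = 0.085). Epithelial markers were higher in 11 of 12 probe sets and lower in 0, endothelial markers higher in 2 of 8 and lower in 0, immune cell markers higher in 1 of 7 and lower in 0, and neural markers higher in 6 and lower in 1 of 13. Over all probe sets tested, 16.8% were higher and 16% lower. The part of these cell states in the differences below was not tested. All directions therefore refer to the label an array carries, KO relative to WT, and fewer cells of a type cannot be told apart from less RNA per cell.

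Glutathione transferases join glutathione to reactive electrophiles, such as the aldehydes formed when membrane lipids oxidise, and so make them soluble and easy to export. Glutathione peroxidases use glutathione to reduce hydrogen peroxide and lipid peroxides, and several of them carry selenocysteine in the active site. Gpx4, which reduces phospholipid hydroperoxides within membranes, is the peroxidase whose loss leads to ferroptosis, an iron-dependent death by lipid peroxidation.

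The members moved in both directions. On the KO-labelled arrays Gsta4 was 11.5-fold, Gpx7 4.98-fold and Gpx3 3.63-fold higher, whereas Gsto1 (3.09-fold and 3.53-fold at its probe sets), Gstm2 (2.17-fold), Gpx1, Gstm5 and 1 of the 4 probe sets of Gstm1 were lower. Gpx4 and Gstt1 did not pass the test. Of the 15 probe sets, 3 were higher, 6 were lower and 6 did not pass (limma adjusted p under 0.05, over all 45037 probe sets), and 3 higher and 3 lower ones also changed over 2-fold. The 60% that passed stands beside 32.7% of all probe sets tested (16.8% higher and 16% lower) and 38.1% of those with 1 gene symbol (19.3% higher and 18.8% lower). Brighter probe sets passed more often: of the 22518 left when dim ones were dropped, 52% passed in a fit of their own. All member probe sets but the dimmer pair of Gstm1 were among these, so 52% is the closer comparison. For changes over 2-fold the shares of all probe sets were 6.35% higher and 7.43% lower (13.8% together), and of those with 1 gene symbol 7.43% higher and 9.28% lower (16.7% together). The median log2 fold change was -0.46 over the members and 0 over all probe sets, and the KO and WT values did not overlap in 10 of the 15 member probe sets, against 45.9% of all probe sets.

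**Figure D1:**
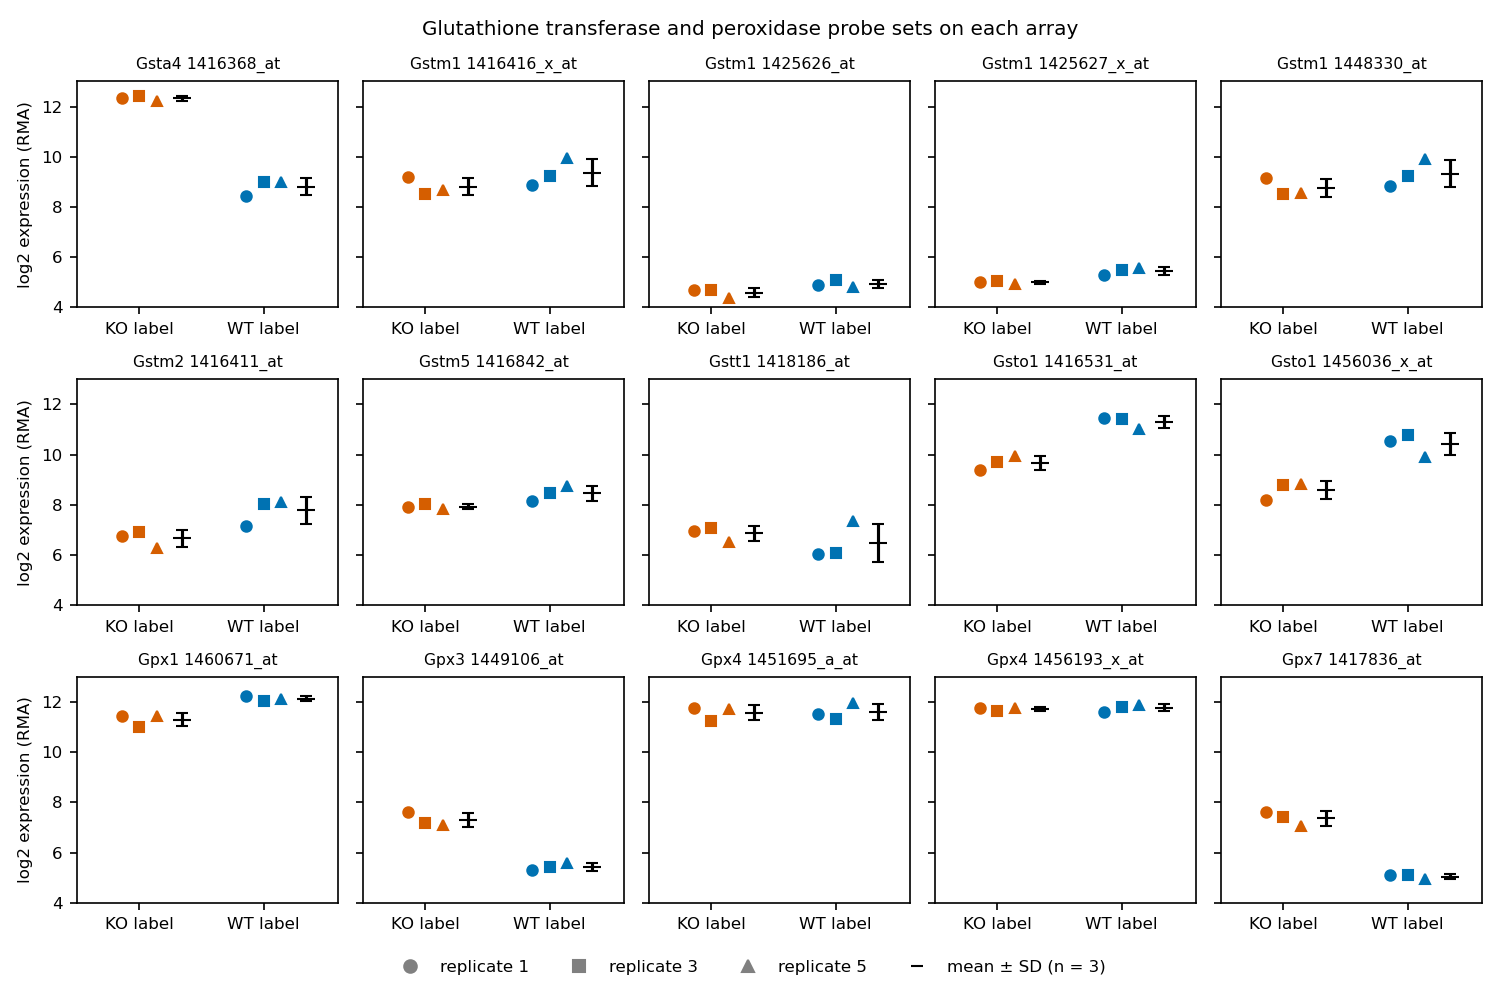
Log2 RMA value of each of the 15 member probe sets on each array, with KO-labelled arrays left of WT-labelled arrays, symbols for single arrays and black marks for the group mean ± SD (n = 3). Gsta4, Gpx3 and Gpx7 sit higher on all 3 KO-labelled arrays, Gsto1 and Gpx1 sit lower on all 3, and the groups overlap for Gstt1 and Gpx4.

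The sequence just upstream of a gene is where the general promoter elements lie, and many glutathione enzymes of mammals are known targets of Nrf2, which binds the antioxidant response element. RefSeq promoter windows of the GRCm38.p6 build (250 bases before to 50 after a start) were matched by symbol for 9 of the 10 members, 13 windows in all, and Gsta4 had none. Windows of 300 bases are shown for the 3 Gstm members, which lie in 1 cluster, and for Gsto1, Gpx3 and Gpx7, which passed over 2-fold. Capitals mark matches on either strand to the core of the antioxidant response element, written TGACNNNGC, to the GC box, written GGGCGG, to the CCAAT box, named by its letters, or to the TATA box, written TATAAA. A match on the other strand appears as the reverse complement of these letters. Over all 32851 windows in the table, the antioxidant response element core was found in 12.4%, the GC box in 35.7%, the CCAAT box in 37.4% and the TATA box in 13.6%.
Gstm5, chr3:107895604-107895903, plus strand: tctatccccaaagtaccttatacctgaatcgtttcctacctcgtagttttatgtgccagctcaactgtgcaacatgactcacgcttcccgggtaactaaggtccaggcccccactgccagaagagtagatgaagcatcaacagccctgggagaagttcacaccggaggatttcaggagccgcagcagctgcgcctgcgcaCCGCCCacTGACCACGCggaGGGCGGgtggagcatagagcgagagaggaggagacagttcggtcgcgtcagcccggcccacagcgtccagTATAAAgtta
Gstm2, chr3:107986371-107986670, minus strand: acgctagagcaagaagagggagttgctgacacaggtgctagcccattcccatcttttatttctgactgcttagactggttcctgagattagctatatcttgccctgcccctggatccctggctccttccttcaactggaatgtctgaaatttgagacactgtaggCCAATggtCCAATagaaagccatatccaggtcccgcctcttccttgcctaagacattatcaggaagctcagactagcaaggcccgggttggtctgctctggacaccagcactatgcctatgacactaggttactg
Gstm1, chr3:108017769-108018068, minus strand: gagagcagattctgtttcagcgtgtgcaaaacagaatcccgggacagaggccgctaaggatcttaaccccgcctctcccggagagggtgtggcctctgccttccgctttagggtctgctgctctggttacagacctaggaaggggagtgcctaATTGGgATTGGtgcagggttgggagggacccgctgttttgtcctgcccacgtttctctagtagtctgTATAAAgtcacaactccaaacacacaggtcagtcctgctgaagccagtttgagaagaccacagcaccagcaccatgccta
Gsto1, chr19:47854723-47855022, plus strand: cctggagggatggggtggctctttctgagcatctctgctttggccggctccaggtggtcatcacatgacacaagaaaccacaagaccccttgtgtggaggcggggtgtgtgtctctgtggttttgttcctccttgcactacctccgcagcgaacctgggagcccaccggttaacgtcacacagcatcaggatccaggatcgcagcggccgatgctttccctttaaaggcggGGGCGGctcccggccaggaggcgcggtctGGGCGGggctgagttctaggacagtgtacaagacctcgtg
Gpx3, chr11:54902604-54902903, plus strand: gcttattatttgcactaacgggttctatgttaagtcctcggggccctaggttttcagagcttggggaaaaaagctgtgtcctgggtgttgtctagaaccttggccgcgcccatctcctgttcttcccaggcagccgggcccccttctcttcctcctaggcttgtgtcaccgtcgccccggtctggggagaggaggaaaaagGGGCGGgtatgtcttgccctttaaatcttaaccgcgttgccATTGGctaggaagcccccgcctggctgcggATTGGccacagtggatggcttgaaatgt
Gpx7, chr4:108406664-108406963, minus strand: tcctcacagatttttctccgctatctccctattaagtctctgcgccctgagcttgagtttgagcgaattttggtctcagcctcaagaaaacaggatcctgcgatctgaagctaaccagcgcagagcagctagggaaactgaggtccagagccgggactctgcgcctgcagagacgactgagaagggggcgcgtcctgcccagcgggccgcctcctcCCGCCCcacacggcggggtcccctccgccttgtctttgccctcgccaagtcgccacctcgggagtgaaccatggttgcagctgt

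Of the 13 windows, 1 held the antioxidant response element core, that of Gstm5, with its first base 42 bases before the start. The window of Gstm5 also held 2 GC boxes and a TATA box, which here lies after the start. Gstm2 and this window of Gstm1 each held 2 CCAAT boxes and no GC box, with a TATA box 30 bases before the start in Gstm1, Gsto1 held 2 GC boxes, Gpx3 held 1 GC box and 2 CCAAT boxes, and Gpx7 held 1 GC box. CpG dinucleotides numbered 18 in the window of Gstm5, 3 in Gstm2, 8 in Gstm1, 16 in Gsto1, 13 in Gpx3 and 19 in Gpx7, against a median of 7 over all windows. These matches describe the letters only, and no binding was measured.

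Gsta4 is an alpha class transferase known for its high activity on 4-hydroxynonenal, an aldehyde product of lipid peroxidation. Its log2 values were 12.33, 12.41 and 12.23 on the KO-labelled arrays, against 8.42, 9.01 and 8.98 on the WT-labelled arrays. Every KO-labelled array was above every WT-labelled one by a gap of several log2 units, and the spread was wider under the WT label (12.32 ± 0.09 for KO and 8.80 ± 0.33 for WT, SD, n = 3 each). The log2 fold change of 3.52 (standard error 0.17, limma adjusted p = 2.7e-05) was the largest among the members and ranked 588 by size among all 45037 probe sets.

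The mu class transferases Gstm1, Gstm2 and Gstm5 act on a broad range of electrophiles and are close relatives in sequence, so a probe set of 1 of them may also catch its neighbours. Gstm2 had log2 values of 6.75, 6.92 and 6.29 on the KO-labelled and 7.17, 8.04 and 8.11 on the WT-labelled arrays. The groups did not overlap, although WT replicate 1 lay much closer to the KO-labelled arrays than the other two WT arrays did. Its log2 fold change was -1.12 (standard error 0.29, limma adjusted p = 0.026), and the call was lost without KO replicate 1 (-1.17, adjusted p = 0.061), KO replicate 5 (-0.94, 0.079), WT replicate 3 (-0.98, 0.09) or WT replicate 5 (-0.95, 0.078).

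Gstm5 had 7.92, 8.02 and 7.82 on the KO-labelled and 8.15, 8.46 and 8.75 on the WT-labelled arrays, apart by a narrow margin. Its log2 fold change of -0.54 (standard error 0.16, limma adjusted p = 0.041) lay close to the threshold and passed it in only 1 of the 6 fits that left out an array, that without WT replicate 1 (-0.69, adjusted p = 0.012). In the other five the adjusted p ran from 0.064 to 0.12.

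Gstm1 was read by 4 probe sets. One pair, 1448330_PM_at and 1416416_PM_x_at, had 9.16, 8.5 and 8.57, and 9.19, 8.53 and 8.69, on the KO-labelled arrays, against 8.83, 9.25 and 9.91, and 8.88, 9.25 and 9.96, on the WT-labelled arrays. Both pairs of groups overlapped, since KO replicate 1 was above WT replicate 1, and neither difference passed the test (-0.59, 95% confidence interval -1.33 to 0.15, and -0.56, -1.29 to 0.17, limma adjusted p = 0.21 and 0.23). Without WT replicate 5 the differences were -0.3 and -0.26 (adjusted p = 0.46 and 0.5). The other pair, 1425627_PM_x_at and 1425626_PM_at, had 5.01, 5.03 and 4.92, and 4.68, 4.69 and 4.38, on the KO-labelled arrays, against 5.28, 5.47 and 5.57, and 4.87, 5.09 and 4.79, on the WT-labelled arrays. These groups did not overlap, and the difference passed for the first of the pair (-0.46, standard error 0.093, limma adjusted p = 0.011) but not for 1425626_PM_at (-0.34, standard error 0.12, adjusted p = 0.083). The values of this pair lay near the signal of the 23 nonspecific probe sets of the array (median 4.23), and probes of the _x_at kind can match other transcripts. All 4 probe sets were lower on average on the KO-labelled arrays, and the call for Gstm1 rests on 1 of them.

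Gstt1, a theta class transferase that acts on small halogenated compounds, had 6.97, 7.07 and 6.53 on the KO-labelled and 6.03, 6.07 and 7.34 on the WT-labelled arrays. WT replicate 5 was above every KO-labelled array while the other two WT arrays were below all of them. The log2 fold change was 0.38 (95% confidence interval -0.52 to 1.27, limma adjusted p = 0.53), and it was 0.81 with an adjusted p of 0.02 without WT replicate 5. That array was the highest of the WT arrays in 6 of the 7 Gstm and Gstt probe sets and in 20 of the 32 fibroblast and mesenchymal marker probe sets. It was also the highest of them at Gpx3 and at both Gpx4 probe sets, and the lowest in both Gsto1 probe sets. The Gstm probe sets include several of Gstm1 and may read each other's transcripts, so they are not independent. The share of all probe sets in which this array was highest was not counted. The part of this array's cell state in the Gstm and Gstt values was not tested.

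The Gstm genes form a cluster on chromosome 3, in which RefSeq lists Gstm5, Gstm7, Gstm6, Gstm3, Gstm2, Gstm1 and Gstm4 as consecutive protein-coding genes. Gstm7 was higher at 1 probe set (log2 fold change 1.76, standard error 0.094, limma adjusted p = 4.3e-05), with 6.36, 6.17 and 6.19 on the KO-labelled and 4.34, 4.57 and 4.53 on the WT-labelled arrays, but not at its other one (0.15, adjusted p = 0.4). Gstm4, at the other end, was also higher (0.92, standard error 0.11, adjusted p = 0.001), whereas Gstm6 (0.02) and Gstm3 (0.1 and 0.1) did not pass. Gstm6 (group means 3.95 for KO and 3.93 for WT) and 1 Gstm3 probe set (4.2 and 4.1) lay below the nonspecific median of 4.23. They carry little information on change, and the other Gstm3 probe set lay at 5.64 and 5.54. The lower calls in the cluster were fragile. That of Gstm5 was lost in 9 of 15 alternatives and that of Gstm2 in 5 of 15, and that of Gstm1 rested on 1 dim probe set. The higher calls also rested on dim probe sets, which dropping dim ones left out. Gstm4 had group means of 5.35 for KO and 4.43 for WT, and Gstm7 had 4.48 for WT, near the nonspecific median. In the main fit the cluster thus held genes called higher and genes called lower, but a firm pattern along it was not shown. On chromosome 10 the order is Gstt3, Gstt1, Gstt4 and Gstt2, and Gstt4 was not measured. Gstt2 was higher (1.48, standard error 0.15, limma adjusted p = 0.00054) and Gstt3 had -0.21.

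**Figure D2:**
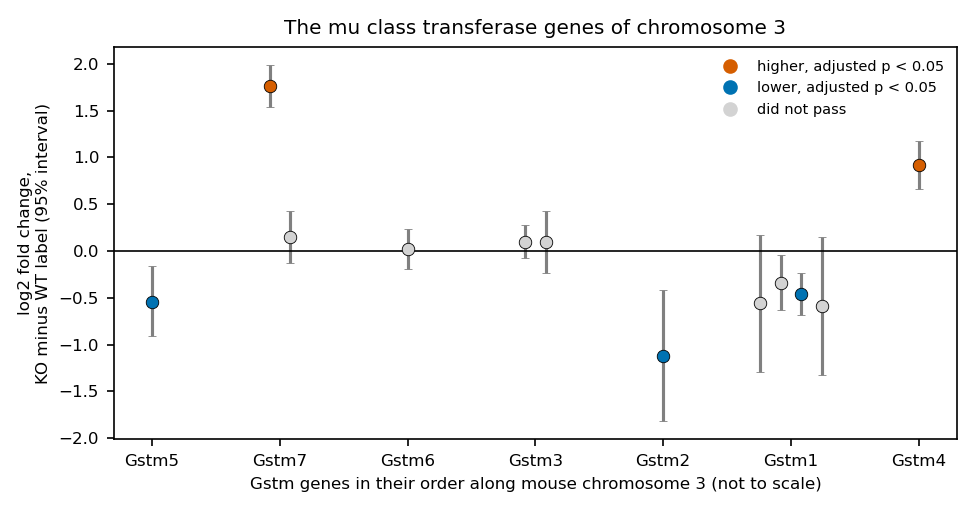
Log2 fold change, KO-labelled minus WT-labelled arrays, of every probe set of the Gstm genes in their order along chromosome 3, with 95% confidence intervals and colour for the direction that passed the test. Gstm7 (1.76) and Gstm4 (0.92) lie above 0, and Gstm2 (-1.12), Gstm5 (-0.54) and 1 probe set of Gstm1 (-0.46) lie below it.

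Gsto1, an omega class transferase with thioltransferase and dehydroascorbate reductase activity, was the transferase among the members that was most reduced. Its probe set 1416531_PM_at had 9.37, 9.7 and 9.94 on the KO-labelled and 11.47, 11.4 and 11.03 on the WT-labelled arrays. The other, 1456036_PM_x_at, had 8.18, 8.79 and 8.83 on the KO-labelled and 10.55, 10.78 and 9.92 on the WT-labelled arrays. Neither pair of groups overlapped, and both probe sets gave a like change, with log2 fold changes of -1.63 (standard error 0.18, limma adjusted p = 8e-04) and -1.82 (standard error 0.27, adjusted p = 0.0028).

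Among the peroxidases, Gpx1, the abundant cytosolic and mitochondrial selenoenzyme that reduces hydrogen peroxide, had 11.46, 11 and 11.46 on the KO-labelled and 12.24, 12.04 and 12.12 on the WT-labelled arrays. All KO-labelled arrays were lower, with a log2 fold change of -0.83 (standard error 0.14, limma adjusted p = 0.0053). Gpx3, the secreted peroxidase of plasma, ran the other way, with 7.63, 7.17 and 7.09 on the KO-labelled and 5.29, 5.42 and 5.6 on the WT-labelled arrays (log2 fold change 1.86, standard error 0.16, limma adjusted p = 3e-04). The groups lay far apart at Gpx3, whereas the gap at Gpx1 was narrower, from 11.46 under the KO label to 12.04 under the WT label.

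Gpx4 was read by 2 bright probe sets. At 1451695_PM_a_at the values were 11.76, 11.23 and 11.74 on the KO-labelled and 11.54, 11.33 and 11.96 on the WT-labelled arrays, and at 1456193_PM_x_at they were 11.78, 11.65 and 11.77 on the KO-labelled and 11.62, 11.82 and 11.9 on the WT-labelled arrays. The groups overlapped at both. The log2 differences were -0.04 (95% confidence interval -0.54 to 0.47, limma adjusted p = 0.93) and -0.05 (-0.27 to 0.18, adjusted p = 0.79), so a change within these intervals could not be told from none.

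Gpx7 encodes a peroxidase of the endoplasmic reticulum that has cysteine in place of selenocysteine and takes part in oxidative protein folding. It had 7.62, 7.43 and 7.05 on the KO-labelled and 5.09, 5.12 and 4.93 on the WT-labelled arrays. The groups were well apart, and the log2 fold change was 2.32 (standard error 0.15, limma adjusted p = 9.8e-05). Gpx8, its closest relative in the same compartment and not a member, moved in the opposite direction, with 6.98, 6.65 and 6.51 on the KO-labelled and 10.86, 10.49 and 10.7 on the WT-labelled arrays (log2 fold change -3.97, standard error 0.15, limma adjusted p = 1.1e-05). Gpx2, the intestinal peroxidase, was slightly higher (0.45, adjusted p = 0.032), a call lost without KO replicate 1, KO replicate 3, WT replicate 3 or WT replicate 5 (0.36 to 0.43, adjusted p = 0.087 to 0.094), and Gpx5 and Gpx6 (-0.02 and 0.02) did not pass.

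**Figure D3:**
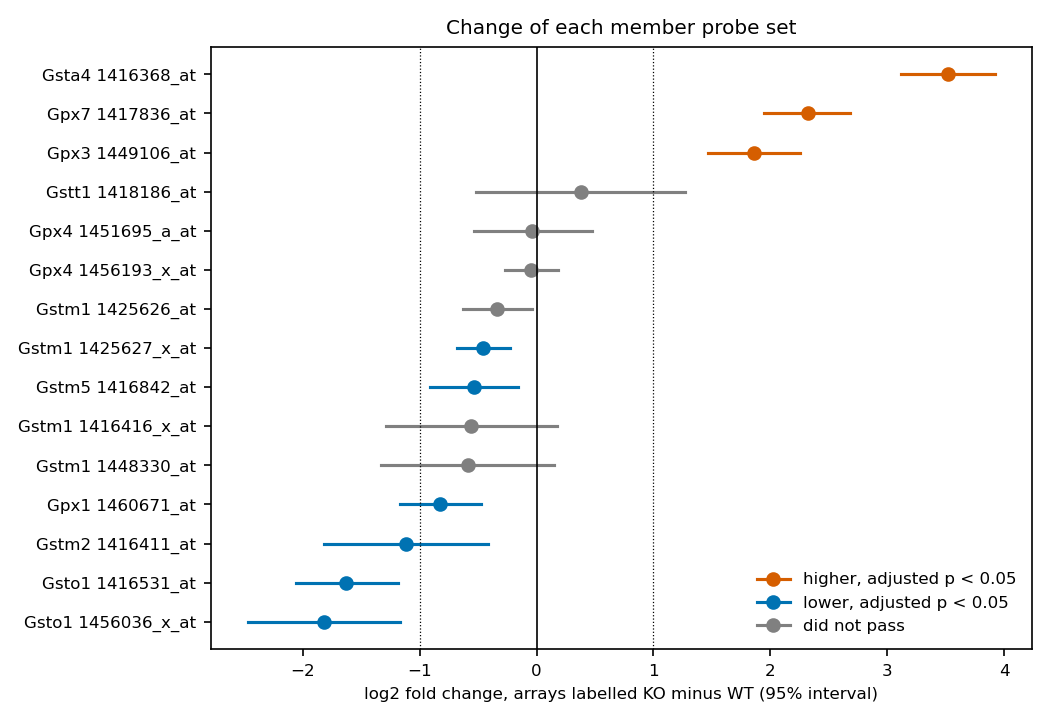
Log2 fold change, KO-labelled minus WT-labelled arrays, of the 15 member probe sets with 95% confidence intervals, ordered by the change, with dotted lines at a 2-fold change. The changes run from -1.82 at a Gsto1 probe set to 3.52 at Gsta4, and the intervals of both Gpx4 probe sets, of Gstt1 and of 2 Gstm1 probe sets include 0.

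The replicate 3 arrays stood apart by their hybridisation controls, and were treated as a possible batch that the labels do not name. All 9 control probe sets were lower on both replicate 3 arrays than on replicates 1 and 5, by 1.25 on average on the log2 scale. Within replicates 1 and 5 the log2 fold changes were 3.58 for Gsta4, 1.91 for Gpx3, 2.32 for Gpx7, -0.72 for Gpx1 and -1.59 and -1.74 for Gsto1, with limma adjusted p from 0.002 to 0.027. The single KO minus WT difference between the replicate 3 arrays was 3.4 for Gsta4, 1.75 for Gpx3, 2.31 for Gpx7, -1.04 for Gpx1 and -1.7 and -1.99 for Gsto1. These 5 genes thus differed in the same direction on both sets of arrays. Gstm2 had -1.12 in both sets (adjusted p = 0.11 within replicates 1 and 5), Gstm5 -0.58 and -0.44 (adjusted p = 0.15), and the called Gstm1 probe set -0.46 and -0.44 (adjusted p = 0.072), so that their calls were not reached with the 4 arrays. With this possible batch as a covariate, Gstm5 lost its call (adjusted p = 0.053) and the Gstm1 probe set 1425626_PM_at gained one (adjusted p = 0.042). Gstt1 differed by 0.06 within replicates 1 and 5 and by 1 in replicate 3.

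The other genes of the pathway were read from lists of named genes. Of the other glutathione transferases, 16 of 23 genes were measured, and 6 of their 23 probe sets were higher and 3 lower (median log2 fold change 0.05). The 39.1% that passed lay near the 38.1% of all probe sets with 1 gene symbol. Gstp1, the pi class enzyme that is abundant in many cultured cells, had 10.71, 10.58 and 10.44 on the KO-labelled and 12.03, 12.06 and 12.18 on the WT-labelled arrays (log2 fold change -1.51, limma adjusted p = 7.3e-05), although its probe set may also read the near-identical Gstp2. The mitochondrial and peroxisomal kappa class enzyme Gstk1 was higher (1.14, adjusted p = 0.00042).

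The genes that make, recycle and break down glutathione showed 7 of 20 probe sets higher and 1 lower, over 16 measured genes (median 0.06), and the higher ones numbered 4 without KO replicate 1 or without WT replicate 5. The 40% that passed lay near the 38.1% of all probe sets with 1 gene symbol. Of glutamate-cysteine ligase, the rate-limiting enzyme of synthesis, the modifier subunit Gclm was higher (0.52, standard error 0.13, limma adjusted p = 0.022), with 10.89, 10.76 and 10.46 on the KO-labelled and 10.21, 10.28 and 10.07 on the WT-labelled arrays, and the catalytic subunit Gclc had 0.44 (adjusted p = 0.068). The call of Gclm was lost without KO replicate 1, KO replicate 3, WT replicate 1 or WT replicate 5 (0.42 to 0.53, adjusted p = 0.06 to 0.07). Glutathione synthetase (Gss) had -0.19 (adjusted p = 0.41). The reductase Gsr, which regenerates glutathione, passed at 1 probe set (0.71, adjusted p = 0.00061) but not at the other (0.05, adjusted p = 0.91). Slc7a11, the light chain of xCT, lay between 3.67 and 4.26 on all 6 arrays at its 2 probe sets, close to the nonspecific median, with differences of 0.07 and -0.04 (adjusted p = 0.6 and 0.77). The breakdown enzymes Oplah (1.30, adjusted p = 0.0018), Anpep (1.15, adjusted p = 0.0044) and Cndp2 (0.79, adjusted p = 0.0067) were higher and Chac2 was lower (-0.93, adjusted p = 0.0019). The Chac2 values on the KO-labelled arrays (3.95, 4.1 and 3.71) lay below the nonspecific median of 4.23.

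Glutaredoxins and glyoxalases, which use glutathione as a cofactor for reducing disulfides and clearing methylglyoxal, had 5 of 17 probe sets higher and 8 lower (median -0.23). The higher ones numbered 3 without KO replicate 3, KO replicate 5, WT replicate 1 or WT replicate 5, and 2 with the 4 arrays of replicates 1 and 5. In the main fit 76.5% of the 17 passed, beside 38.1% of all probe sets with 1 gene symbol. Of all probe sets left when dim ones were dropped, 52% passed. Glrx, the cytosolic glutaredoxin, was lower at both of its probe sets (-1.33 and -1.32, limma adjusted p = 0.00015 and 0.00055), and Esd, which completes the glutathione-dependent removal of formaldehyde, was lower at -1.08 (adjusted p = 7e-04). A probe set of Esd at -1.22 (adjusted p = 0.031) lost its call without KO replicate 1, 3 or 5 or WT replicate 3 (adjusted p = 0.071 to 0.091). Gpx1, Gpx3 and Gpx4 need selenocysteine, and of 17 probe sets for selenium supply and selenocysteine incorporation 5 were higher and 2 lower (median 0.21). The 41.2% of these that passed lay near the same 38.1%. Sephs2, which makes the selenium donor, was higher at 2 probe sets (1.34 and 1.27, adjusted p = 0.00018 and 0.00013). Lrp8, the receptor through which cells take up selenoprotein P, was lower at its called probe sets (-2.39 and -1.81, adjusted p = 4.6e-05 and 0.00045), with 5.06, 4.83 and 5.08 on the KO-labelled and 7.18, 7.6 and 7.36 on the WT-labelled arrays at the first.

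**Figure D4:**
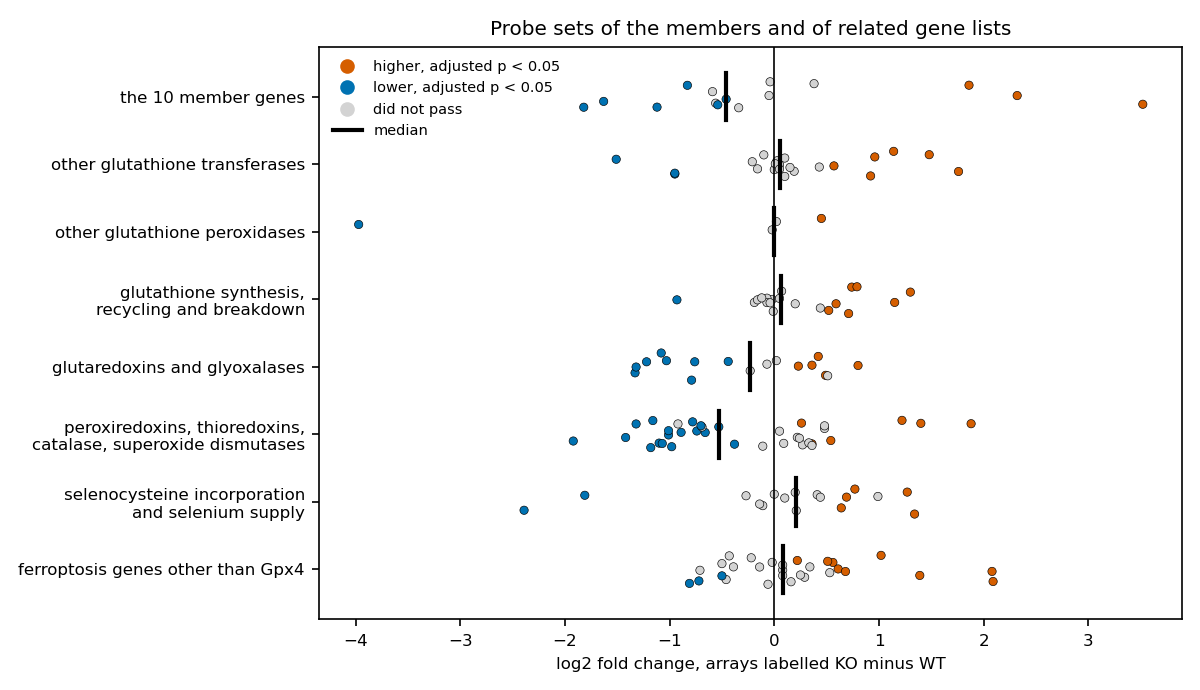
Log2 fold change, KO-labelled minus WT-labelled arrays, of every probe set in the members and in each list of related genes, with a bar at each list's median and colour for the direction that passed the test. The list medians lie between -0.53 and 0.21, and Gpx8 (-3.97) lies lowest of the related genes.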

How the data were processed

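Per the labels, RNA of CD98hc KO and WT fibroblasts was amplified, labelled and hybridised to Affymetrix mouse genome arrays, 3 per label. Slc3a2 RNA was higher under the KO label, at a probe set whose place relative to the deleted exons is not known here. Most fibroblast marker probe sets were lower there, against the cell type given. Per the labels and the study's methods, the authors normalised the arrays by RMA (no version given) and deposited 1 log2 value per probe set, which compresses low signals towards background. The sources name different RNA extraction kits. The deposited values were used as they stood, 45037 of 45141 probe sets after leaving out 104 array controls. Of all 45141, controls included, 28898 had 1 gene symbol in the platform annotation, 551 had several and 15692 were unnamed here. The KO minus WT difference was fitted in limma 3.58.1 under R 4.3.3 (functions lmFit and eBayes), with Benjamini-Hochberg adjustment over all 45037 probe sets. The study's model had scan batch as covariate, which the labels do not give for any array. The precision is set by how few arrays there are: with 3 against 3, an exact permutation test of a single value cannot go below 0.1. All probe sets of the members are named. From each list of related genes, up to 4 with the largest changes among those that passed were picked, plus Slc3a2, Slc7a11, Gclc, Gclm, Gss, Gsr and Gpx8. Of these picks Cisd1 is not described, and other probe sets of some picked genes are given beside them. Of the cell type markers, Col3a1 is the only such pick named, singled out once its values had been seen. Gstm3, Gstm4, Gstm6, Gstt3, Gpx5, Gpx6, the fibroblast markers near background, Vim, Sparc and Fn1 were added to these once their values had been seen. The members and lists were chosen with earlier results of these data known. On simulated data over 45037 probe sets, the test called 87 of 100 with a log2 change of 1.5, 98 of 100 with a log2 change of 3 and 13 of 44837 unchanged ones. No log2 change under 1.5 was simulated, and a far smaller share of probe sets changed there than passed on these arrays. These rates therefore do not give the sensitivity for the smaller changes described here. The alternatives were a replicate block, other scalings, dropping dim probe sets, another variance model, the possible batch of the replicate 3 arrays, leaving out each array and 1 value a gene. Promoter windows came from RefSeq (GRCm38.p6). Figures were drawn with matplotlib 3.10.9.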

Additional observations from a re-analysis of the deposited data

How the results depend on the processing

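Gsta4, Gpx3, Gpx7, Gpx1 and both Gsto1 probe sets kept their direction and their call under every alternative run, with log2 fold changes of 3.33 to 3.62, 1.69 to 1.96, 2.19 to 2.48, -0.9 to -0.67, -1.76 to -1.48 and -2.07 to -1.61. The sign of Gpx4 turned, never past the threshold: at 1451695_PM_a_at leaving out single arrays gave -0.18 to 0.14 (0.13 without KO replicate 3 and 0.14 without WT replicate 5), and at 1456193_PM_x_at it gave -0.13 to 0.01 (0.01 without WT replicate 5), while the 4 arrays of replicates 1 and 5 gave 0.02. With those 4 arrays the lower member probe sets numbered 3 in place of 6, and the higher probe sets of the related lists 24 in place of 39. Leaving out single arrays gave 4 to 6 lower members and 30 to 35 higher related probe sets. Dropping dim probe sets, which tests fewer of them, left 2 of the 6 higher other transferases. Gstm5 lost its call in 9 of 15 alternatives (adjusted p up to 0.15), among them quantile normalisation (-0.46, 0.064), and Gstm2 in 5 of 15 (up to 0.11). The called Gstm1 probe set also lost its call as the mean of the gene's probe sets (-0.49, adjusted p = 0.066). The cause was not tested. Whether the replicate numbers pair the arrays was not settled. Deviations of same-numbered arrays correlated at 0.057, 0.558 and 0.152 for replicates 1, 3 and 5. The value of replicate 3 was the highest of all KO and WT pairs, whereas KO replicate 1 correlated best with WT replicate 5 (0.31). With 3 arrays per label these correlations cannot decide it. With the number as a block, 16217 probe sets passed in place of 14749, the member counts stayed at 3 higher and 6 lower, Gstm5 had an adjusted p of 0.056 and the Gstm1 probe set 1425626_PM_at one of 0.03. No detection calls were used, so probe sets near the nonspecific median carry little information on change.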

Other observations

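Outside the glutathione enzymes, the peroxiredoxins, thioredoxins, catalase and superoxide dismutases had 35 probe sets, of which 6 were higher and 17 were lower with the KO label, and a median log2 fold change of -0.53. The higher ones numbered 3 without WT replicate 3, 1 with the 4 arrays of replicates 1 and 5 and 3 with array medians set equal. They numbered 10 with the possible batch of the replicate 3 arrays as a covariate. In the main fit 65.7% of the 35 passed, beside 38.1% of all probe sets with 1 gene symbol. Of all probe sets left when dim ones were dropped, 52% passed. Prdx4, the peroxiredoxin of the endoplasmic reticulum, was lower at all 4 of its probe sets (-1.42 to -1.01, limma adjusted p of 0.0068 or less), with 9.45, 9.76 and 9.4 on the KO-labelled and 10.82, 11.03 and 11.02 on the WT-labelled arrays at the one that changed most. The extracellular dismutase Sod3 was lower (-1.92 and -0.66, adjusted p = 3.4e-05 and 0.0076). At its first probe set the KO-labelled values (4.29, 4.11 and 4.15) lay near the nonspecific median of 4.23. The mitochondrial dismutase Sod2 was instead higher at 3 of 4 probe sets (1.88, 1.4 and 0.54, adjusted p = 0.00036, 0.0056 and 0.039), of which the call at 0.54 was lost without any 1 of the WT arrays (adjusted p = 0.057 to 0.12). The groups did not overlap at the Sod2 probe set with the largest change, with 9.58, 10.06 and 10.22 on the KO-labelled and 8.1, 8.16 and 7.96 on the WT-labelled arrays.

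Of the ferroptosis genes other than Gpx4, 9 of 29 probe sets were higher and 3 lower (median 0.08). The 41.4% that passed lay near the 38.1% of all probe sets with 1 gene symbol. Dhodh, the mitochondrial enzyme of pyrimidine synthesis that also reduces ubiquinone, was higher at both probe sets (2.09 and 2.08, limma adjusted p = 0.00011 and 0.00085), with 9.72, 9.7 and 9.95 on the KO-labelled and 7.87, 7.82 and 7.42 on the WT-labelled arrays at the first. Hmox1, the inducible haem oxygenase, was higher too (1.39, adjusted p = 0.00061). Aifm2, which encodes the ubiquinone reductase FSP1, was lower at 2 of 3 probe sets (-0.5 and -0.81, adjusted p = 0.02 and 0.026). The first call was lost without WT replicate 3 (adjusted p = 0.057) and the other without KO replicate 1, KO replicate 3, WT replicate 1 or WT replicate 5 (0.054 to 0.08). The 3 probe sets of Acsl4, which builds polyunsaturated fatty acids into membrane lipids, had -0.46, -0.5 and -0.71 and did not pass. The groups of Acsl4 overlapped at each of these probe sets. Aifm2 and Acsl4 were named after their values were seen.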
